A study of Mus musculus with 2 samples.

Results

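The cytosolic ribosomal protein genes are described here in BV-2 cells (also written BV2), an immortalized mouse microglial line, cultured in DMEM/F12 or in DMEM. The genes were taken by symbol: transcript clusters (the probe groups of the array, each summarized as 1 value) that carry exactly 1 symbol of the form Rpl or Rps with a number, or Rpsa or Rplp0 to Rplp2, were kept, and the Rps6k kinases were left out. This gave 61 genes with 217 clusters, of 19938 genes with a cluster of their own and 28944 clusters in all. The symbol rule itself uses no measured value.

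Both cultures were seeded in DMEM/F12, and the medium was exchanged on the following day. The DMEM/F12 culture received fresh DMEM/F12, a nutrient-rich mixture, and the DMEM culture received DMEM with high glucose. Both media held fetal bovine serum, penicillin and streptomycin, and RNA was taken after 1 day. The study compared the media to find genes tied to the shape of the cells, and each culture was read on 1 array (Affymetrix Mouse Gene 1.0 ST). With 1 array per medium there is no error between cultures, no test was possible and no p-value is given, so every difference below compares 2 arrays. It is written as the log2 value on the DMEM/F12 array minus that on the DMEM array, and a level is the deposited log2 value. On a total RNA array of this kind, fewer transcripts per cell and a smaller share of all RNA cannot be told apart.

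The ribosome is built from a small 40S subunit, which holds the mRNA and reads its codons, and a large 60S subunit, which joins the amino acids. Each subunit consists of ribosomal RNA and a set of proteins that are present in about equal number, so their genes are known to be expressed in a coordinated way in every cell. Most ribosomal protein mRNAs begin with a C followed by a run of pyrimidines, the 5′ terminal oligopyrimidine (TOP) tract, through which mTOR signalling, which responds to amino acids, controls their translation. In microglia, as in other cells, ribosome supply sets the capacity for protein synthesis. Many ribosomal protein genes have processed pseudogene copies in the mouse genome, and clusters of 1 gene can therefore bind the RNA of near-identical copies. The values of genes with several clusters are uncertain in this respect.

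Across both arrays the ribosomal protein genes lay close together between the media. Of the 61 genes, 37 (60.7%) were higher on the DMEM/F12 array, where 47.2% of all genes were, and 24 (39.3%) were lower, where 45.5% of all genes were. Their median difference was 0.03 (lowest −0.61, quartiles −0.07 and 0.10, highest 0.29), against 0 over all genes. When each array was centred on its own median, the split was 31 higher and 28 lower. The all-cluster median was 4.77 on the DMEM/F12 array and 4.75 on the DMEM array, so centring lowers every difference alike. The shares over all genes were not computed after centring, so this split has no background beside it. By spread, 38 of the 61 genes (62.3%) lay within 0.10 of 0, against 40% of the 13225 genes above background. The SD over genes was 0.15, against 0.22 for the genes above background. No comparison with other genes or clusters, here or below, was matched for signal level. The median member cluster had 9.58 on the DMEM/F12 array and 9.52 on the DMEM array, well above the all-cluster medians. An SD of 0.15 was also found for the 72 ribosome biogenesis factors described below, around a median of −0.16. The 39 members averaged over several clusters had an SD of 0.10 with 69.2% within 0.10, and the 22 with 1 cluster had an SD of 0.19 with 50% within 0.10, nearer to the values over the array. Counted by cluster, 136 of 217 (62.7%) were higher, 72 (33.2%) lower and 9 equal, where 45.9% of all clusters were higher and 46.1% lower.

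The smallest fold threshold used was a difference of 0.32 on the log2 scale. No ribosomal protein gene was higher by that much on the DMEM/F12 array, where 7.22% of all genes were, and 1 of 61, Rpl14, was lower by that much, where 6.5% of all genes were. Rpl14 was also the single member at least 1.5-fold lower, a level that 0.928% of all genes passed upward and 0.727% downward. At 2-fold no member was called in either direction, and over all genes 0.0602% were called higher and 0.0251% lower. The genes nearest to the 0.32 line without passing it were Rps15 above (1.22-fold higher) and Rps3a1 below (1.21-fold lower). All but 1 of the 61 genes lay within 0.30 of 0, where 16709 of all 19938 genes did.

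**Figure D1:**
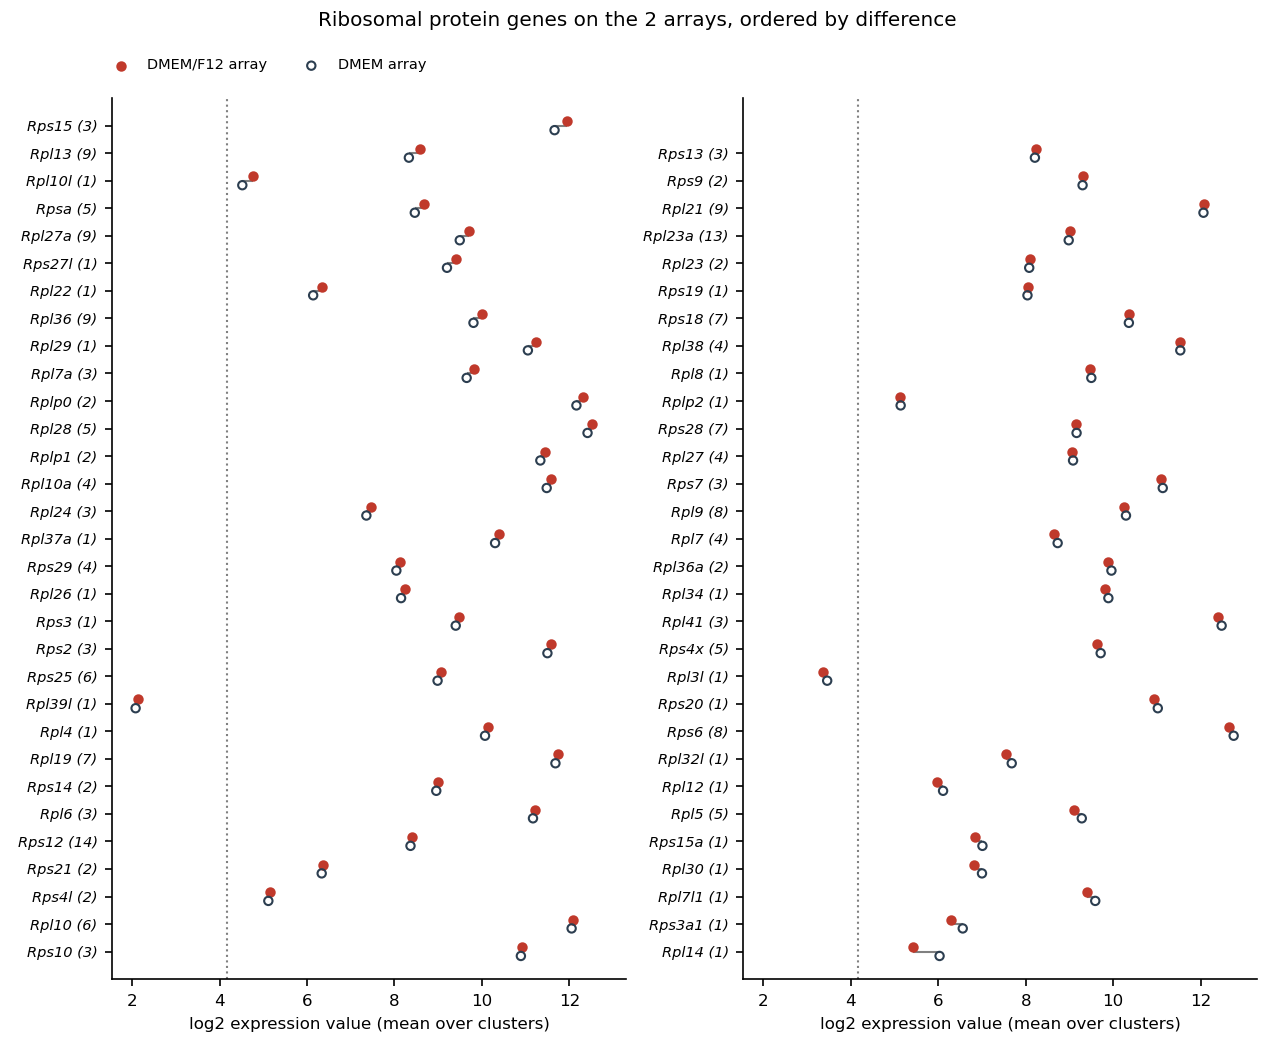
Log2 expression value (horizontal axis) of each of the 61 ribosomal protein genes, averaged over its clusters (number in parentheses), on the DMEM/F12 array (filled) and the DMEM array (open), ordered by difference from Rps15 (0.29) at the top left to Rpl14 (−0.61) at the bottom right. The dotted line is the background level of 4.17 on the DMEM/F12 array, and only Rpl39l and Rpl3l lie below it.

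The labelled cell type and the signal were checked once over the whole series. Receptor genes for odours, pheromones and taste, which are not expected in these cells, served to set the background. The 95th percentile of their 1243 clusters was 4.17 on the DMEM/F12 array and 4.15 on the DMEM array. Of 12 microglia and macrophage markers 10 were above it, among them Cd68, Fcer1g, Tyrobp and Spi1, while Aif1 and P2ry12 were below it on both arrays. Among the 12, Tmem119 had 6.05 on the DMEM/F12 array and 6.71 on the DMEM array (−0.66), and Csf1r had 8.47 on the DMEM/F12 array and 8.79 on the DMEM array (−0.32). A gene was counted as above background when it passed the level on at least 1 array. Markers above background numbered 2 of 6 for neurons, 1 of 5 for astrocytes, 1 of 4 for endothelial cells and 4 of 4 for oligodendrocytes, of which Cnp, a gene also used outside oligodendrocytes, was at 6.54 on the DMEM/F12 array and 6.85 on the DMEM array, and Mbp, Mobp and Mog lay between 4.14 and 5.09, with Mobp past the background on the DMEM array only. The log2 of the summed linear level was 13.30 on the DMEM/F12 array and 13.27 on the DMEM array for the microglia list. For the oligodendrocyte list it was 7.37 on the DMEM/F12 array and 7.55 on the DMEM array, for neurons 6.81 on the DMEM/F12 array and 6.76 on the DMEM array, for astrocytes 6.16 on the DMEM/F12 array and 6.17 on the DMEM array, and for endothelial cells 6.27 on both. The part of these markers in any result was not tested. Among the 61 ribosomal protein genes 59 were above background, as were 215 of the 217 clusters. The median of the 217 clusters was 9.58 on the DMEM/F12 array and 9.52 on the DMEM array. The brightest member cluster reached 12.77 on the DMEM/F12 array and 12.86 on the DMEM array, below the array maximum of 13.66 on both.

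The TOP tract was looked for at the start of the genes because it is a feature the choice by symbol did not use. In RefSeq (GRCm38.p6), 49 of the 61 genes had an entry for their start site. The letters searched were a C at the start base followed by at least 4 bases that are each C or T, on the strand of the gene only, because the tract is read in the mRNA. It was found in 10 of the 49 genes (20.4%), against 813 of 27025 genes with an entry (3.01%). When the tract was allowed to begin within 10 bases of the start on either side, a choice made after seeing the data, it was found in 28 of the 49 (57.1%), against 34.4% of all. A match describes the letters at the annotated start and not the start the cells used. Of the 10 genes, 6 are shown because they span the range of differences, from the lowest to the highest member with the tract. Each window holds 20 bases before the RefSeq start and 10 bases from it, 5′ to 3′ on the strand of the gene, with the tract in capitals.
Rpl14, chr9:120571497-120571526, plus strand: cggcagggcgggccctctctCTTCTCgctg
Rps15a, chr7:118116138-118116167, minus strand: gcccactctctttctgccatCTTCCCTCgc
Rps6, chr4:86857358-86857387, minus strand: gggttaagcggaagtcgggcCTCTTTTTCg
Rpl38, chr11:114668560-114668589, plus strand: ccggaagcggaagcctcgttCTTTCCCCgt
Rps18, chr17:33955656-33955685, minus strand: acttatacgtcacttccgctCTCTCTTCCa
Rpl28, chr7:4792945-4792974, plus strand: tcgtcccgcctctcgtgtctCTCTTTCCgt
The tract is 6 bases long in Rpl14, 8 in Rps15a, Rpl38 and Rpl28, and 9 in Rps6 and Rps18. In this order the differences were −0.61, −0.17, −0.11, −0.02, −0.01 and 0.11, so genes with closely alike tracts lay on both sides of 0. The 10 genes with the tract had a median difference of −0.02 (3 higher, 7 lower), and the 39 without it 0.05 (26 higher, 13 lower). With the wider window the medians lay close together, at 0.02 for the 28 genes with the tract (16 higher, 12 lower) and 0.03 for the 21 without it (13 higher, 8 lower). Over all genes above background the median was 0.03 for the 301 genes with the tract at the start base and 0 for the 10211 without it, and with the wider window it was 0 for the 3865 genes with the tract and 0 for the 6647 without it.

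Among the 60S genes, 22 of 38 were higher and 16 lower on the DMEM/F12 array, with a median of 0.02. The lowest was Rpl14, a protein of the large subunit and the first window above, with 5.42 on the DMEM/F12 array and 6.03 on the DMEM array, a difference of −0.61 or 1.53-fold lower, from 1 cluster. Its distance to the next member, Rps3a1 at −0.27, was wider than that between any other neighbours in the order. The cluster of Rpl14 was dim beside the median member cluster (9.58 on the DMEM/F12 array and 9.52 on the DMEM array). Rpl30, which in mammals also binds the selenocysteine insertion element, had 6.81 on the DMEM/F12 array and 7.0 on the DMEM array (−0.19, 1 cluster). Rpl5, which with Rpl11 and the 5S RNA forms the particle that binds Mdm2 when ribosome assembly fails, had 9.11 on the DMEM/F12 array and 9.28 on the DMEM array (−0.17). All 5 clusters of Rpl5 were lower, between −0.23 and −0.15. Rpl12, at the base of the P stalk, had 5.96 on the DMEM/F12 array and 6.11 on the DMEM array (−0.15, 1 cluster). The 8 clusters that list Rpl12 beside another symbol, kept apart below, were brighter (6.78 to 12.23 on the DMEM/F12 array). All of them were higher (0.04 to 0.15), so the place of Rpl12 at the low end rests on its 1 dim cluster. No cluster carries Rpl11 alone.

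At the high end of the 60S genes stood Rpl13, a protein of the large subunit whose gene hosts a small nucleolar RNA, with 8.59 on the DMEM/F12 array and 8.33 on the DMEM array (0.27, 1.20-fold). Its 9 clusters were all higher, between 0.25 and 0.29. Rpl27a, another protein of the large subunit, had 9.71 on the DMEM/F12 array and 9.49 on the DMEM array (0.21), with all 9 clusters higher (0.11 to 0.31). These genes have the same number of clusters and differ in how far those clusters spread. Rpl22, known for its role in T cell development, had 6.34 on the DMEM/F12 array and 6.14 on the DMEM array (0.20, 1 cluster). Rpl36, also of the large subunit, had 9.99 on the DMEM/F12 array and 9.81 on the DMEM array (0.19), and its 9 clusters were all higher (0.10 to 0.22). Rpl29, also described as a heparin-binding protein, had 11.23 on the DMEM/F12 array and 11.05 on the DMEM array (0.18, 1 cluster). Rpl7a, a further large-subunit protein, had 9.81 on the DMEM/F12 array and 9.65 on the DMEM array (0.16), with its 3 clusters at 0.09, 0.14 and 0.24.

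The other 60S genes with at least 4 clusters had gene differences between −0.07 and 0.11. Rpl28 had 12.53 on the DMEM/F12 array and 12.41 on the DMEM array (0.11), with 5 clusters between 0.09 and 0.13, and Rpl10a had 11.59 on the DMEM/F12 array and 11.48 on the DMEM array (0.11), with 4 clusters all higher. Rpl19, which contributes to a bridge between the subunits, had 11.73 on the DMEM/F12 array and 11.68 on the DMEM array (0.05), and its 7 clusters were all higher (0.02 to 0.09). In Rpl9 the reverse held, with 10.25 on the DMEM/F12 array and 10.29 on the DMEM array (−0.04) and 8 clusters all lower (−0.07 to −0.03). Rpl23a, at the exit of the peptide tunnel, had 9.0 on the DMEM/F12 array and 8.98 on the DMEM array (0.02), and 10 of its 13 clusters were higher (−0.13 to 0.10). Rpl21 had 12.08 on the DMEM/F12 array and 12.06 on the DMEM array (0.02, 9 clusters, −0.10 to 0.10), and Rpl10, one of the last proteins to join the subunit, 12.08 on the DMEM/F12 array and 12.05 on the DMEM array (0.03, 6 clusters). Rpl38, known from mouse mutants with skeletal patterning defects, had 11.52 on the DMEM/F12 array and 11.54 on the DMEM array (−0.02, 4 clusters), and Rpl27 9.05 on the DMEM/F12 array and 9.08 on the DMEM array (−0.03, 4 clusters). Rpl7 had 8.66 on the DMEM/F12 array and 8.73 on the DMEM array (−0.07), and its 4 clusters disagreed in sign, from −0.19 to 0.10.

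The P stalk recruits the elongation factors to the 60S subunit and is made of Rplp0, which anchors it, and of Rplp1 and Rplp2. Rplp0 had 12.31 on the DMEM/F12 array and 12.16 on the DMEM array (0.15, both clusters at 0.15), and Rplp1 had 11.45 on the DMEM/F12 array and 11.34 on the DMEM array (0.11, 2 clusters). Rplp2 was measured by 1 cluster, with 5.12 on the DMEM/F12 array and 5.14 on the DMEM array (−0.02). The difference of Rplp2 was thus the smallest of the stalk genes. Its cluster was far dimmer than those of Rplp0 and Rplp1, so its sign is not read as a contrast.

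Among the 40S genes 15 of 23 were higher and 8 lower on the DMEM/F12 array, with a median of 0.03, and 17 of 23 lay within 0.10 of 0. The highest gene of all members was Rps15, a protein of the head of the small subunit that reaches toward the decoding centre. It had 11.95 on the DMEM/F12 array and 11.66 on the DMEM array (0.29), and its 3 clusters gave 12.08, 11.85 and 11.91 on the DMEM/F12 array, against 11.92, 11.62 and 11.44 on the DMEM array. The 3 differences of Rps15 were 0.16, 0.23 and 0.47, so its place at the top rests on 1 cluster. Rpsa, the laminin receptor precursor, which is also a 40S protein, had 8.68 on the DMEM/F12 array and 8.46 on the DMEM array (0.22), with 5 clusters between 0.20 and 0.23. The clusters of Rpsa were closer to each other than those of any other member with at least 4 clusters except Rps29, a zinc-binding 40S protein, whose 4 clusters lay at 0.08 or 0.09 around a gene mean of 8.13 on the DMEM/F12 array and 8.04 on the DMEM array. Rps25, which is needed for translation from some viral internal entry sites, had 9.06 on the DMEM/F12 array and 8.99 on the DMEM array (0.08), and its 6 clusters were all higher.

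At the low end of the 40S genes stood Rps3a1, a protein near the mRNA exit, with 6.29 on the DMEM/F12 array and 6.56 on the DMEM array (−0.27, 1 cluster). The 2 brighter clusters that list Rps3a1 beside another symbol, kept apart below, were at −0.13 each. Rps15a, shown above with its tract, had 6.84 on the DMEM/F12 array and 7.01 on the DMEM array (−0.17, 1 cluster). The 2 brighter clusters that list Rps15a beside other symbols were at −0.08 and −0.05. Rps6, the substrate of the S6 kinases downstream of mTOR, had 12.65 on the DMEM/F12 array and 12.76 on the DMEM array (−0.11). All 8 clusters of Rps6 were lower, between −0.21 and −0.05. Rps20 had 10.93 on the DMEM/F12 array and 11.02 on the DMEM array (−0.09, 1 cluster), and Rps4x, encoded on the X chromosome, 9.63 on the DMEM/F12 array and 9.71 on the DMEM array (−0.09), with 5 clusters all lower. Rps12, the member with the most clusters, had 8.4 on the DMEM/F12 array and 8.37 on the DMEM array (0.04), and 13 of its 14 clusters were higher. Rps18 had 10.35 on the DMEM/F12 array and 10.36 on the DMEM array (−0.01), with 3 clusters higher, 3 lower and 1 equal, and Rps28, a protein at the mRNA exit, had 9.14 on the DMEM/F12 array and 9.16 on the DMEM array (−0.02, 7 clusters). Rps27a, which is made as a fusion with ubiquitin, was not analysed here.

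The clusters of a gene share the RNA of 1 culture per medium and are no replicates. In each of the 39 genes with several clusters, all clusters also share at least 1 accession in the annotation. Their spread describes how evenly a gene was read and is no measure of independent agreement. In 22 of the 39 genes every cluster lay on 1 side (16 genes higher, 6 lower), and in 17 the clusters were mixed or partly at 0. The same count was not made over the other genes of the array. It is therefore not read as a trait of the ribosomal protein genes. The pooled SD of cluster differences within a gene was 0.05, and the SD between the means of these 39 genes was 0.10. Over the 999 genes of the array with several clusters the same quantities were 0.19 within and 0.18 between. No background filter was applied to the 999 genes, whereas all 39 members were above background, so the sets are not alike. The range within a ribosomal protein gene was 0.08 at the median and widest in Rps9, a 40S protein at the mRNA entry channel, whose clusters had 9.12 and 9.52 on the DMEM/F12 array, against 9.26 and 9.34 on the DMEM array (−0.14 and 0.18). For 23 clusters both values equalled those of another cluster of the same gene. The 22 genes with 1 cluster had 10 higher and 12 lower (median −0.02), and the 39 genes with several had 27 higher and 12 lower (median 0.04).

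**Figure D2:**
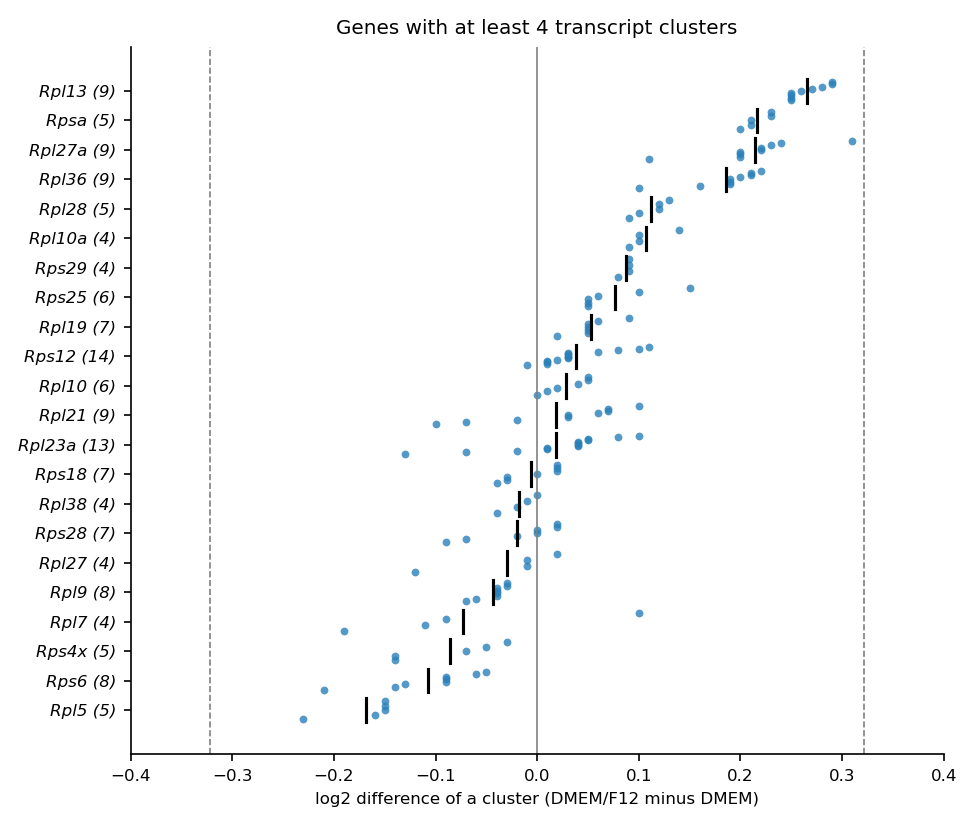
Differences in log2 value (DMEM/F12 minus DMEM, horizontal axis) of single clusters (points) and their mean (bars) for the 22 genes with at least 4 clusters (number in parentheses); the dashed lines mark differences of −0.32 and 0.32. The 9 clusters of Rpl13 lie between 0.25 and 0.29 and the 5 of Rpl5 between −0.23 and −0.15, while those of Rpl7 spread from −0.19 to 0.10.

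Paralogs are extra copies with a sequence and expression of their own, and 7 members carry such a name. Rps27l, a p53 target related to Rps27, had 9.41 on the DMEM/F12 array and 9.20 on the DMEM array (0.21, 1 cluster), and Rpl10l, which replaces the X-linked Rpl10 in male germ cells, 4.76 on the DMEM/F12 array and 4.52 on the DMEM array (0.24, 1 cluster), close to the background. Its parent Rpl10 differed by 0.03. Rpl7l1, known from precursors of the large subunit, had 9.40 on the DMEM/F12 array and 9.59 on the DMEM array (−0.19, 1 cluster), beside −0.07 for its parent Rpl7. Rpl32l had 7.54 on the DMEM/F12 array and 7.68 on the DMEM array (−0.14, 1 cluster), and Rps4l, which RefSeq lists as a transcribed pseudogene, 5.15 on the DMEM/F12 array and 5.12 on the DMEM array (0.04, 2 clusters), beside −0.09 for Rps4x. Below background on both arrays were Rpl39l, described in male germ cells, with 2.14 on the DMEM/F12 array and 2.08 on the DMEM array, and Rpl3l, a form of striated muscle, with 3.37 on the DMEM/F12 array and 3.46 on the DMEM array. Of the 5 paralogs above background 3 were higher and 2 lower.

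Clusters that list a ribosomal protein symbol together with another symbol cannot be given to 1 gene and were kept apart. There were 239 such clusters with 37 symbols, and 18 of these symbols have no cluster of their own. The median difference of the 239 clusters was 0.04, with 156 higher, 80 lower and 3 equal. That is 65.3% higher and 33.5% lower, where 45.9% of all clusters were higher and 46.1% lower. Within 0.10 of 0 lay 171 (71.5%), where 38% of all clusters did. These shares count some symbols many times and the clusters are no replicates. Rpl29 was listed by 35 clusters (32 higher) and Rpl21 by 32 (28 higher). Of the 19 symbols that occur both ways, the median of the shared clusters had the sign of the own clusters in 13 and the opposite sign in 5 (Rpl12, Rpl32l, Rpl36a, Rps13 and Rps19), and it was 0 in Rpl26. The 8 clusters that list Rpl12 beside another symbol were all higher (0.04 to 0.15), against −0.15 for the cluster of Rpl12 alone. By contrast the 10 that list Rpl30 with another symbol were all lower (−0.22 to −0.11), as was the cluster of Rpl30 alone (−0.19). The 17 that list Rpl7a and the 17 that list Rps2, a protein of the mRNA entry channel, were all higher, as were 32 of the 35 that list Rpl29.

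Among the symbols found only in shared clusters, the 7 clusters that list Rpl3, a protein of the peptidyl transferase region, were all higher (0.15 to 0.24), as were the 6 that list Rpl11 (0.06 to 0.23) and the 3 that list Rps26 (0.18 each). The 9 that list Rpl31 were all lower (−0.13 to −0.03), and of the 12 that list Rpl35a 11 were lower and 1 was equal. Clusters with symbols of the same subunit therefore lay on different sides of 0. The pair that lists Rpl22l1 with Gm15421 had 4.19 and 4.12 on the DMEM/F12 array, against 4.6 and 4.51 on the DMEM array (−0.41 and −0.39), near background. The pair that lists Rpl36al with Dnaaf2 had 9.64 and 9.74 on the DMEM/F12 array, against 9.95 and 9.97 on the DMEM array (−0.31 and −0.23). The highest value, 0.74, belonged to the cluster that lists Rpl13 with the small nucleolar RNA Snord68, with 8.10 on the DMEM/F12 array and 7.36 on the DMEM array.

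**Figure D3:**
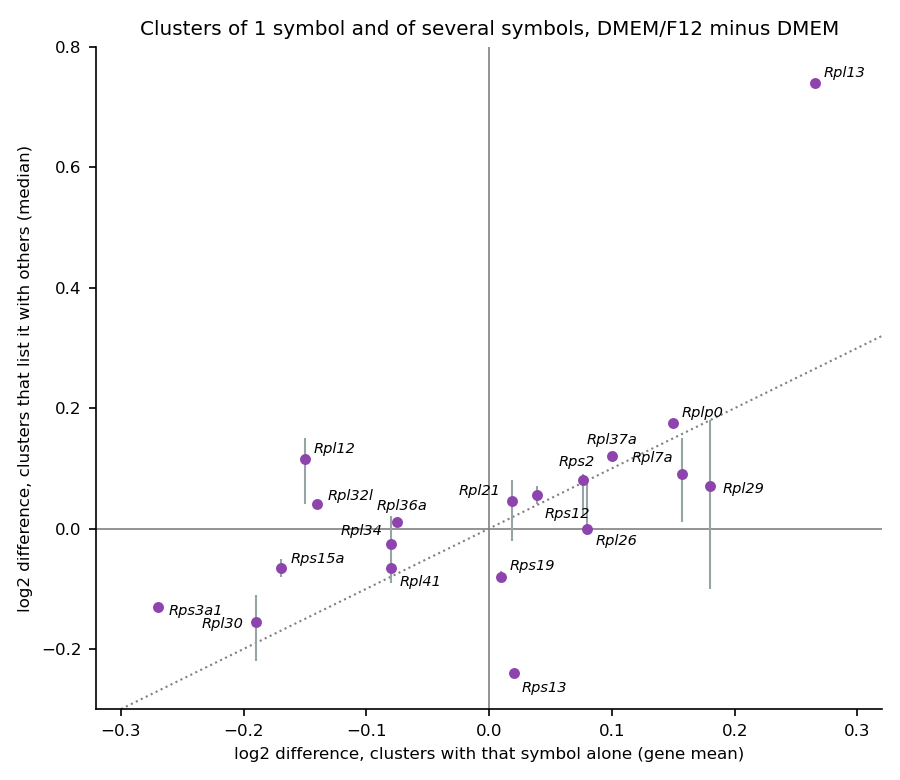
Difference (log2, DMEM/F12 minus DMEM) of the clusters that list a symbol with others (median, vertical axis, with lines from lowest to highest) against the gene mean of the clusters with that symbol alone (horizontal axis), for 19 symbols; the dotted line marks equal values. Rpl12 lies at 0.12 against −0.15 and Rpl30 at −0.16 against −0.19, and the cluster listing Rpl13 with Snord68 stands highest at 0.74.

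Other genes of protein synthesis were read from lists, which overlap in part. The ribosome biogenesis factors, which process ribosomal RNA and assemble the subunits in the nucleolus, had 65 of 72 genes lower on the DMEM/F12 array and 7 higher, with a median of −0.16, and 12 were lower by 0.32 or more and 0 were higher by as much, where 6.5% of all genes were lower and 7.22% higher by that much. The mitochondrial ribosomal proteins, which serve the separate ribosomes of mitochondria, had 56 of 77 lower, 19 higher and 2 equal, with a median of −0.16, and 10 were lower by 0.32 or more and 1 higher by as much. In both lists the count of lower genes stands against the 45.5% of all genes that were lower, and the difference between the lists and the ribosomal proteins was not tested. Tsr2, which escorts Rps26 to the nascent subunit, had 6.93 on the DMEM/F12 array and 7.54 on the DMEM array (−0.61), and Mphosph10, a factor of small-subunit processing, 5.30 on the DMEM/F12 array and 5.86 on the DMEM array (−0.56). Among the mitochondrial genes Mrpl51 had 6.74 on the DMEM/F12 array and 7.39 on the DMEM array (−0.65), and Mrpl42 4.85 on the DMEM/F12 array and 5.44 on the DMEM array (−0.59). Of the 13 chaperones of single ribosomal proteins 9 were lower (median −0.09), with the largest differences in Tsr2 and in Ipo7, an import receptor with 8.80 on the DMEM/F12 array and 8.42 on the DMEM array (0.38).

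The initiation factors were divided, with 17 of 33 higher and 16 lower (median 0.01, or −0.01 after median centring). The largest differences were in Eif2b2, a subunit of the exchange factor of Eif2, with 6.93 on the DMEM/F12 array and 7.55 on the DMEM array (−0.62), and in Eif1b, with 8.12 on the DMEM/F12 array and 8.45 on the DMEM array (−0.33). Of the 12 elongation and termination factors 5 were higher, 6 lower and 1 equal, and Eef1d (6.69 on the DMEM/F12 array and 7.05 on the DMEM array, −0.36) and Eef1e1 (9.49 on the DMEM/F12 array and 9.78 on the DMEM array, −0.29) differed most. The other genes known for TOP mRNAs had 12 of 17 higher and 5 lower and a median of 0.09. Those counts are 70.6% higher, beside 47.2% over all genes, and 29.4% lower, beside 45.5% over all genes. The largest differences in that list were those of Eef1d and of Npm1, a nucleolar chaperone with 9.59 on the DMEM/F12 array and 9.95 on the DMEM array (−0.36). Fau, which encodes the 40S protein Rps30 as a fusion and falls outside the symbol rule, belongs to it with 11.47 on the DMEM/F12 array and 11.22 on the DMEM array (0.25, 2 clusters).

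The regulators of TOP mRNA translation had 6 of 12 higher and 6 lower (median −0.01, or 0.01 after loess centring). Pdcd4, an inhibitor of the helicase Eif4a that S6 kinase marks for degradation, had 8.16 on the DMEM/F12 array and 7.31 on the DMEM array (0.85), and Tial1, which binds TOP mRNAs on amino acid starvation, 7.14 on the DMEM/F12 array and 7.45 on the DMEM array (−0.31). Among the 15 genes of ribosomal stress and quality control 7 were higher, 7 lower and 1 equal. Mdm2, the p53 ligase bound by free Rpl5 and Rpl11, had 7.32 on the DMEM/F12 array and 6.95 on the DMEM array (0.37), and Gcn1, which senses stalled ribosomes, 7.41 on the DMEM/F12 array and 7.13 on the DMEM array (0.28).

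**Figure D4:**
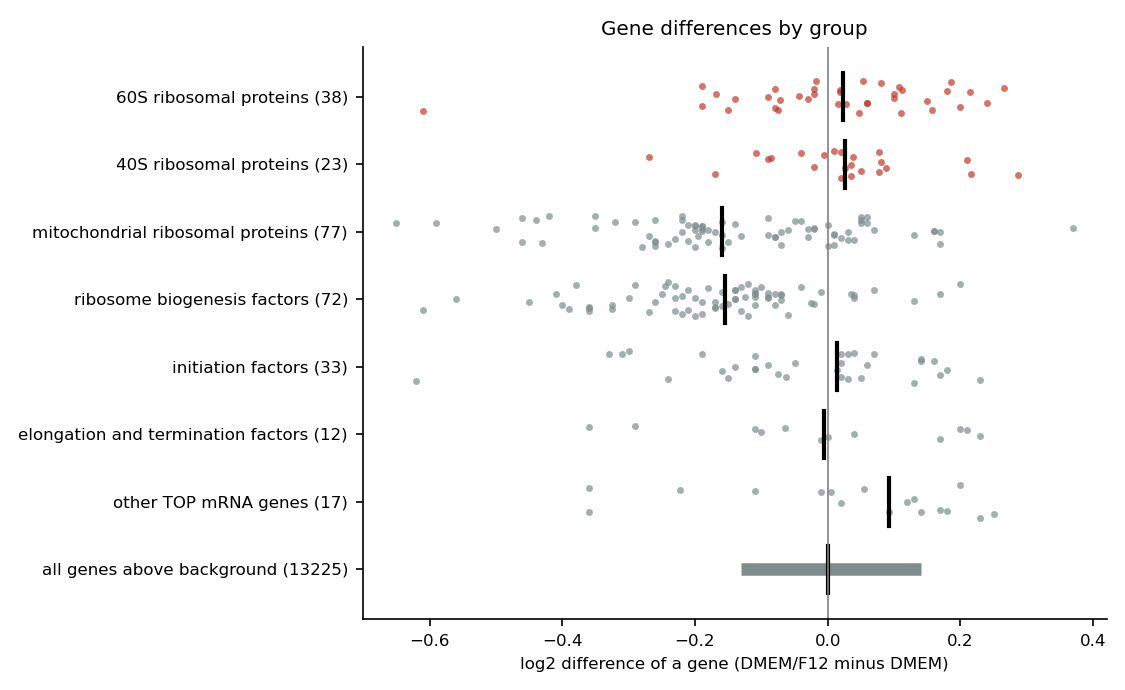
Difference of single genes (points, log2, DMEM/F12 minus DMEM) and the median (bars) in ribosomal protein genes by subunit and in other gene lists, with the number of genes in parentheses and, for the 13225 genes above background, the median and the range between the quartiles. The medians are 0.02 for 60S and 0.03 for 40S genes, and −0.16 for both the mitochondrial ribosomal proteins and the biogenesis factors.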

How the data were processed

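Total RNA of BV2 cells, 1 culture for each medium, was read on Mouse Gene 1.0 ST arrays. The authors deposited log2 values, 1 per transcript cluster and array. The labels name Affymetrix Expression Console and Transcriptome Analysis Console. Summarization, normalization, versions and build were all not given in the sources used here. Precision is limited by the number of arrays, 2. Values were used as deposited. Symbols came from the platform annotation (21789 clusters with 1 symbol, 1621 with several, 5534 with none), and all 217 member clusters matched a RefSeq symbol by their gene ID. Gene values are means of log2 values over clusters. No test was made: a call is a log2 difference of 0.32, or a fold of 1.5 or 2. Python 3.11.15, pandas 2.3.3, numpy 2.4.6, statsmodels 0.14.6 and matplotlib 3.10.9 were used, and the calculation was tested on simulated data. The genes named are the 10 highest and 10 lowest members above background, all paralogs, all members with at least 4 clusters, those beside the 0.32 line, Rpsa, Rplp0 to Rplp2, Rps27a, Rps6, Rpl5 and Rpl11, and in each list the 2 with the largest difference. Rps9, the shared clusters and markers were named after their values were seen. Members and lists were chosen with earlier results of these data known. Alternatives were median, quantile and loess (span 0.3) scaling, the brightest cluster or median over clusters, background filters and leaving out paralogs.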

Additional observations from a re-analysis of the deposited data

How the results depend on the processing

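No paired analysis was possible because the arrays number 1 for each medium. Among the recomputed summary values 102 moved by no more than 0.05 (log2) or 1.5 times and 4 by more. The limit of 0.05 is wider than the main median of all members (0.03). A change in the sign of such a median can therefore count as not moved. With only genes with 1 cluster, 22 ribosomal protein genes enter. Of these 10 (45.5%) were higher and 12 (54.5%) lower, against 37 (60.7%) and 24 (39.3%) in the main result. Over all genes 47.2% were higher and 45.5% lower, so the excess of higher members was absent in this setting. The 40S median was −0.04, against 0.03, and the median of all members was −0.02. The share of ribosomal protein genes with a TOP tract was 57.1% when it could begin within 10 bases of the start, against 20.4%. The wider window reads more positions, and over all genes with an entry the share was 34.4%, against 3.01%. Median centring, which shifts the median of all clusters by −0.02, gave 120 clusters higher and 88 lower. Loess centring gave 150 and 67, with 39 genes higher and 22 lower. No share over all genes or clusters was computed under these scalings. The median of the initiation factors was −0.01 under median centring and −0.02 under quantile normalization, and that of the TOP regulators 0.005 under quantile and 0.01 under loess. For the 42 named member genes, 336 of 342 comparisons stayed within 0.05. The exceptions were Rpl39l and Rpl3l, at 0 when raised to background, Rpl7 at −0.19, Rpl7a at 0.09 and Rps15 at 0.16 by the brightest cluster, and Rps15 at 0.23 by the median over clusters. In 6 genes, none differing by over 0.03, a scaling or cluster choice turned the sign.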

Other observations

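Some symbols that begin like those of ribosomal proteins but name other genes were left out of the ribosomal protein members. The S6 kinase genes, whose products include kinases of Rps6, gave 6.99 on the DMEM/F12 array and 7.18 on the DMEM array for Rps6kb2 (−0.19), which is counted among the regulators of TOP mRNA translation, 6.92 on both arrays for Rps6ka3, and 5.32 on the DMEM/F12 array and 4.93 on the DMEM array for Rps6kl1 (0.39). Rps19bp1, which encodes a protein that binds Rps19, had 7.12 on the DMEM/F12 array and 7.33 on the DMEM array (−0.21). The pseudogene Rpl14-ps1 had 3.98 on the DMEM/F12 array and 4.13 on the DMEM array, below background, and the cluster of Rps19-ps3 alone had 4.90 on the DMEM/F12 array and 4.95 on the DMEM array.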
